A study of Rattus norvegicus with 8 samples.

Results

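The genes described here are 10 natural killer and cytotoxic effector genes of the rat liver: the receptor genes Klrk1, Klrd1 and Klrb1a, the pore-forming protein gene Prf1, the granzyme genes Gzma, Gzmb, Gzmk and Gzmm, the granule membrane gene Nkg7 and the chemokine gene Ccl5. They were taken as the probe sets whose only gene symbol in the platform annotation is one of these names, which gave 11 probe sets for 10 of the 14217 genes with a probe set of their own. Gzmb had 2 probe sets and each other gene had 1. The values come from livers of male Wistar rats that were made cirrhotic with inhaled carbon tetrachloride (CCl4, a hepatotoxin). The labels give water with phenobarbital at 0.3 g/L, an inducer of hepatic drug metabolism, to cirrhotic and control animals alike. One group of 4 arrays is labelled vehicle, while the series text speaks of non-treated rats, and the other group of 4 is labelled as antiangiogenic treatment. Sources used here do not give the agent, its dose, the timing or the age of the animals, and no array of a liver without cirrhosis was analysed here. Treatment with CCl4 and phenobarbital is therefore shared by both groups.

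Natural killer cells and cytotoxic T cells kill target cells by releasing granules. Perforin opens pores in the target membrane, and granzymes, which are serine proteases, pass into the target cell and start its death. Receptors of the lectin-like Klr families read the surface of other cells and hold back or set off this release, and the rat liver is known for a resident natural killer population in its sinusoids. In whole liver RNA, a lower signal from fewer cells of a type cannot be told apart from less RNA per cell.

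The arrays were Affymetrix Rat2302 arrays, and each value is a log2 intensity of 1 probe set after robust multi-array average (RMA) processing. Array medians lay between 5.16 and 5.30, and the 25th percentile of an array between 3.74 and 3.91. Vehicle 4 and treated 3 were nearly the same array in content, with a median absolute difference of 0.112 across all probe sets against 0.169 to 0.289 in the other 27 pairs of arrays, so the members' differences and the list medians are also given without both. Levels of BioB and BioC, bacterial RNAs added as hybridization controls, were clustered and cut into 3 groups, a number chosen for the clustering. These were vehicle 1 with treated 1, vehicle 4 with treated 3, and the remaining 4. The liver label held, since the mean of 7 hepatocyte markers such as Alb (albumin) lay between 13.38 and 13.72 on every array. Nothing in the labels says more about how animals map to arrays than 1 title per liver sample, so p-values measure only the spread between these samples, which may be technical. Cross-hybridization between near-identical members of the Klr and granzyme families was not tested.

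Most of the 10 genes were dim, which limits what a difference can show. Klrk1 and Ccl5 lay above the array median on 8 of 8 arrays and Gzmm on 5. Gzma and the brighter Gzmb probe set lay below the 25th percentile on 8 of 8 arrays, Klrd1 on 7 and Klrb1a on 5. Prf1, Gzmk and Nkg7 lay between, and Gzmk was below that percentile on 0 arrays. Signal was not tested against background, and RMA draws differences of dim probe sets towards 0. Only 4 member probe sets, those of Klrk1, Gzmk, Gzmm and Ccl5, had a mean at or above the 40th percentile of all probe sets (4.55).

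No member differed between the groups beyond the spread of the arrays. By limma with Benjamini-Hochberg adjustment over 31042 probe sets, 0 of 11 member probe sets passed an adjusted p of 0.05 (adjusted p from 0.979 to 0.996), against 0% of all probe sets. At an unadjusted p of 0.05, 0 of 11 passed, against 3.93% of all probe sets. The groups overlapped at all 11, while 1.67% of all probe sets had groups that did not overlap. Of the 10 genes, each by its brightest probe set, 8 were lower and 2 higher in treated livers, with a median log2 difference of −0.11. Over the 14217 genes 48.4% were lower and the median was 0.01, with quartiles of −0.13 and 0.13. Without vehicle 2 the count of lower members was 5 and the median −0.03. Without both near-identical arrays, 9 were lower and the median was −0.15, against 48.0% and 0.01 over all genes.

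**Figure D1:**
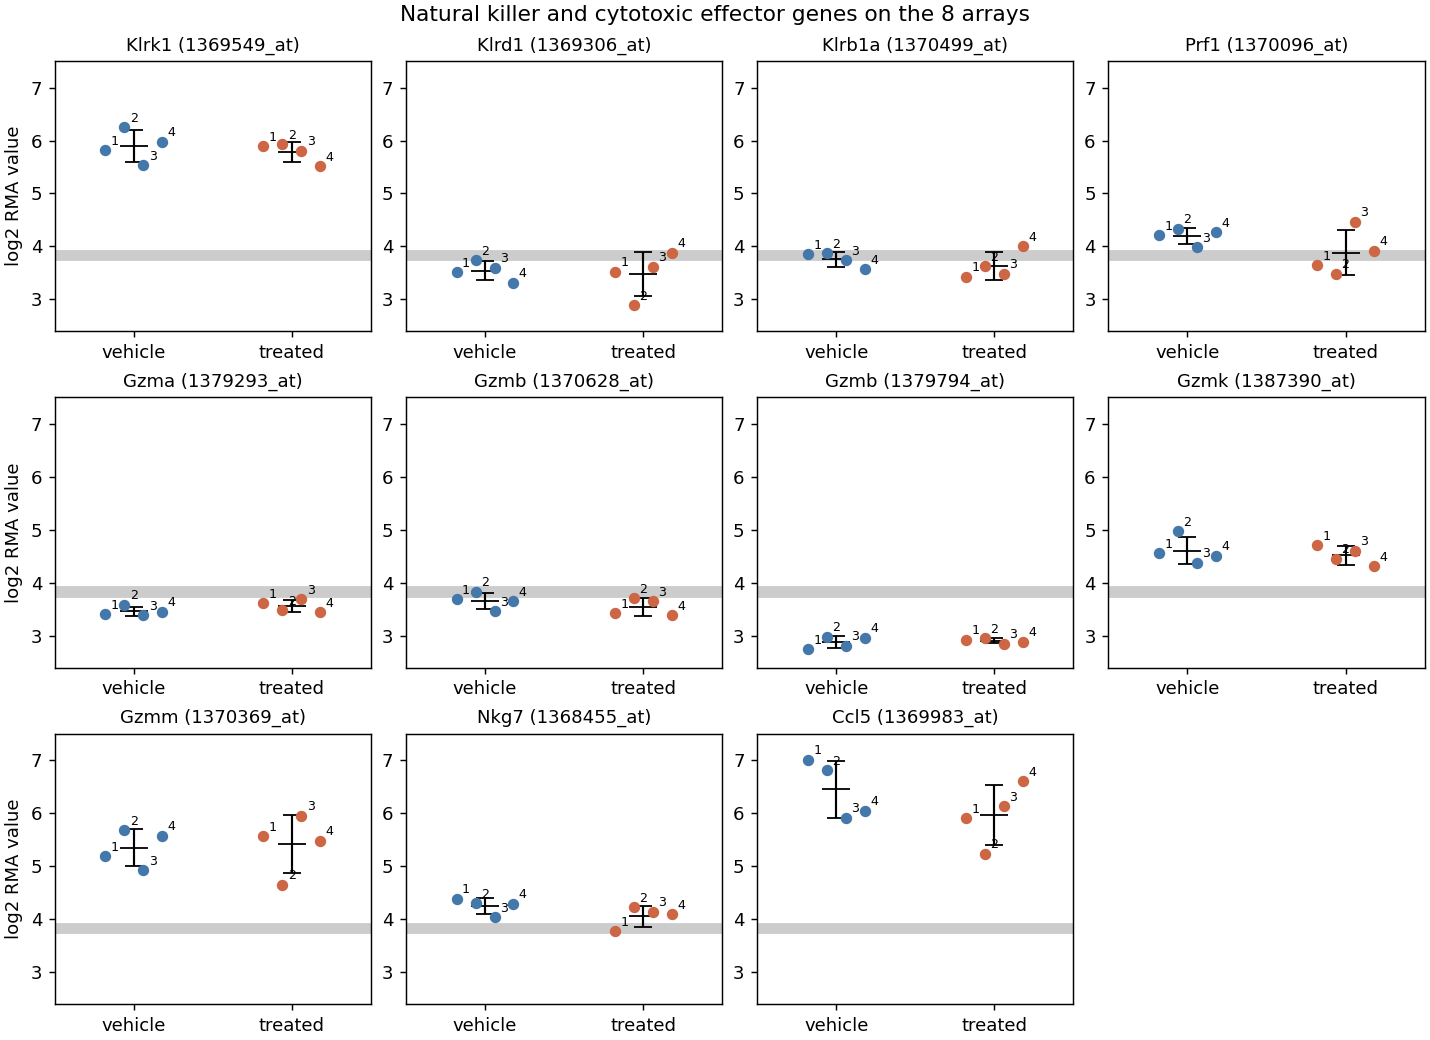
Log2 RMA values (vertical axis) of the 11 member probe sets in vehicle (blue) and treated (orange) livers. Each point is 1 array with its replicate number, the long bar is the mean, whiskers are the SD (n = 4 per group), and the grey band spans the 25th percentiles of the 8 arrays (3.74 to 3.91). The groups overlap in every panel, and only the Klrk1, Gzmm and Ccl5 panels reach above the array medians.

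Among the receptors, Klrk1 (probe set 1369549_at) encodes NKG2D, an activating receptor for stress-induced ligands on natural killer and CD8 T cells. Its log2 values were 5.82, 6.25, 5.53 and 5.98 on the vehicle arrays (replicates 1 to 4, in this order throughout) and 5.89, 5.93, 5.81 and 5.52 on the treated arrays. Vehicle 2 was highest and treated 4 lowest, and 3 treated values fell inside the vehicle range. The means were 5.89 ± 0.30 (SD, n = 4) and 5.79 ± 0.19 (SD, n = 4), a difference of −0.11 with a 95% interval from −0.49 to 0.28 (limma adjusted p = 0.981). The interval spans levels from 1.40-fold lower to 1.21-fold higher in treated livers. Without vehicle 2 the difference was 0.01, so its direction rested on that array.

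Klrd1 (1369306_at) encodes CD94, the partner chain of the NKG2 receptors that bind nonclassical class I molecules. It stood at 3.51, 3.74, 3.60 and 3.31 on the vehicle arrays and at 3.52, 2.89, 3.62 and 3.88 on the treated arrays. Treated livers held both the lowest and the highest value, treated 2 and treated 4. The difference was −0.06 (95% interval −0.53 to 0.40), turned to 0.003 without vehicle 2 and was 0.13 without treated 2. Klrb1a (1370499_at), the lectin-like receptor NKR-P1A that serves as a surface marker of rat natural killer cells, stood at 3.85, 3.87, 3.74 and 3.57 in vehicle and at 3.43, 3.63, 3.49 and 4.01 in treated livers. Again 1 treated array, treated 4, was the highest of all, while treated 1 and 3 lay below every vehicle array. The difference was −0.12 (−0.46 to 0.21).

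Prf1 (1370096_at), the gene of perforin, gave the second-largest difference among the members. Its values were 4.21, 4.34, 3.98 and 4.26 in vehicle livers and 3.65, 3.49, 4.47 and 3.92 in treated livers. Treated 1, 2 and 4 lay below all vehicle arrays, and treated 3 lay above all of them. The means were 4.20 ± 0.15 and 3.88 ± 0.43 (SD, n = 4 each), a difference of −0.32 (SE 0.21, 95% interval −0.78 to 0.15, limma adjusted p = 0.979). Treated 3 is the near-copy of vehicle 4, which stood at 4.26. Without both arrays the difference was −0.49 (−0.88 to −0.10) and the groups did not overlap, with an unadjusted limma p of 0.021 and an adjusted p of 0.723. On those 6 arrays 10.3% of all probe sets had groups that did not overlap and 6.52% an unadjusted p under 0.05, and 1 of the 11 member probe sets, Prf1, did. The difference was −0.51 without treated 3 alone and −0.19 without treated 2.

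None of the granzyme genes differed between the groups beyond the spread of the arrays. Gzma (1379293_at), a tryptase-like granzyme, stood at 3.40, 3.59, 3.39 and 3.45 in vehicle and at 3.62, 3.48, 3.69 and 3.45 in treated livers. Treated 1 and 3 were the highest of the 8, and the difference was 0.10 (−0.14 to 0.33). Gzmb (1370628_at), which cleaves caspases and other substrates after aspartate, stood at 3.69, 3.83, 3.47 and 3.66 in vehicle and at 3.42, 3.71, 3.65 and 3.39 in treated livers. Vehicle 2 was highest and treated 4 lowest, with a difference of −0.12 (−0.40 to 0.16). The second Gzmb probe set (1379794_at) differed in sign, by 0.03 (−0.20 to 0.25), and its 8 values, the dimmest of the set, ran only from 2.75 to 2.98.

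Gzmk (1387390_at), a granzyme typical of effector memory T cells, stood at 4.56, 4.97, 4.38 and 4.52 in vehicle and at 4.71, 4.45, 4.61 and 4.31 in treated livers. Every treated value but that of treated 4 fell inside the vehicle range, and the difference was −0.09 (−0.44 to 0.26), or 0.03 without vehicle 2. Gzmm (1370369_at), a granzyme that cleaves after methionine and is known from natural killer cells, stood at 5.19, 5.69, 4.93 and 5.58 in vehicle and at 5.56, 4.65, 5.95 and 5.48 in treated livers. Treated livers spanned the vehicle range on both sides, from treated 2 to treated 3. The difference was 0.07 (−0.57 to 0.70). It turned to −0.07 when vehicle 3 was left out and to −0.12 when treated 3 was. Leaving out both near-identical arrays gave −0.04. The Gzmm interval, from 1.48-fold lower to 1.62-fold higher, was the widest of the 4 granzyme genes.

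Nkg7 (1368455_at), a granule membrane protein that takes part in cytotoxic degranulation, stood at 4.39, 4.30, 4.04 and 4.30 in vehicle and at 3.77, 4.23, 4.14 and 4.09 in treated livers. Treated 2, 3 and 4 lay inside the vehicle range and treated 1 below it, and the difference was −0.20 (−0.50 to 0.10). Ccl5 (1369983_at), the chemokine RANTES that T and natural killer cells store and release and that other liver cells also make, gave the largest difference and the widest spread of the set. It stood at 7.01, 6.82, 5.92 and 6.05 in vehicle livers and at 5.90, 5.24, 6.13 and 6.60 in treated livers. Vehicle 1 and 2 were the highest and treated 2 the lowest, while vehicle 3 and 4 lay among the treated values. The means were 6.45 ± 0.55 and 5.97 ± 0.57 (SD, n = 4 each), a level 1.39-fold lower in treated livers (difference −0.48, SE 0.33, 95% interval −1.23 to 0.27, limma adjusted p = 0.979). The interval allows a level up to 2.35-fold lower and 1.21-fold higher. The difference was −0.24 when treated 2 was left out, −0.69 when treated 4 was, and −0.67 on the 6 arrays that exclude the near-identical ones.

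Without vehicle 4 and treated 3 the other members kept intervals that include 0. Among the receptors the difference was then −0.09 (−0.61 to 0.43) for Klrk1, −0.19 (−0.79 to 0.41) for Klrd1 and −0.14 (−0.54 to 0.27) for Klrb1a. Among the granzymes it was 0.05 (−0.24 to 0.34) for Gzma, −0.16 (−0.53 to 0.21) and 0.08 (−0.21 to 0.36) for the brighter and the second Gzmb probe set, −0.15 (−0.61 to 0.31) for Gzmk and −0.04 (−0.76 to 0.68) for Gzmm. It was −0.21 (−0.61 to 0.19) for Nkg7 and −0.67 (−1.65 to 0.32) for Ccl5. Gzmm was the member whose direction turned.

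**Figure D2:**
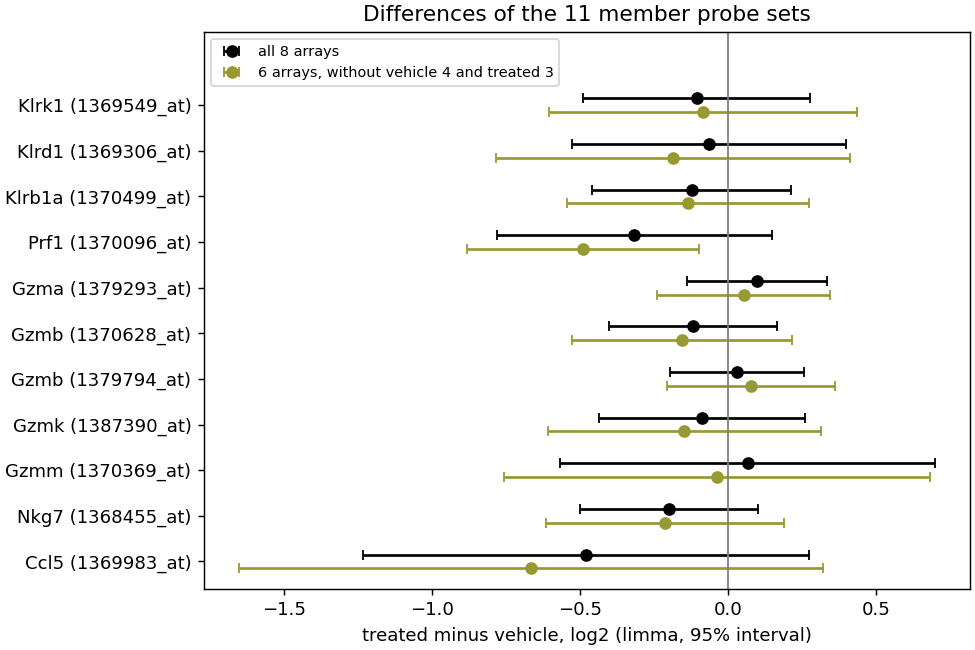
Treated minus vehicle differences (log2, horizontal axis) of the 11 member probe sets with 95% intervals from limma, on all 8 arrays (black) and without vehicle 4 and treated 3 (olive). Every black interval includes 0. Of the olive intervals, the one of Prf1 does not, at −0.88 to −0.10.

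Within the spike-in groups the members did not keep 1 direction. Over all genes the median differences in these 3 groups, in the order below, were 0.04, −0.005 and 0. The share of all genes that were lower is not given here. The first and the last group compare 1 array with 1 array. In the pair of vehicle 1 and treated 1, 5 of 10 genes were lower in the treated liver, with a median of −0.13 and the largest gaps at Ccl5 (−1.11) and Nkg7 (−0.62). Among the 4 arrays of the middle group, vehicle 2 and 3 against treated 2 and 4, 9 of 10 were lower with a median of −0.20. Between vehicle 4 and treated 3, 4 of 10 were lower with a median of 0.09. These last 2 arrays differed by 0.37 for Gzmm and 0.30 for Klrd1. The median absolute difference over the 10 genes was 0.162 in this pair, and 3 of the other 27 pairs had a smaller one. Over all probe sets, in contrast, no other pair was as close.

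Several members shared the array on which they were highest or lowest. Klrk1, Gzmk and the brighter Gzmb probe set were all highest on vehicle 2 and all lowest on treated 4, and vehicle 2 lay above the gene's own mean for 10 of 10 members. Vehicle 2 also had the highest array median (5.30), and the share of all genes above their own mean on it is not given here. Prf1 and Gzmm were both highest on treated 3 and lowest on treated 2, and Klrd1 and Ccl5 were also lowest on treated 2. Klrd1 and Klrb1a were both highest on treated 4. Averaged over the 10 genes and centred on each gene, the arrays stood at 0.11, 0.29, −0.15 and 0.02 in vehicle livers and at −0.10, −0.28, 0.10 and 0.01 in treated livers. The SD was larger in treated than in vehicle livers for 8 of 10 genes. The SDs were close for Gzmb (0.15 in vehicle, 0.16 in treated) and Ccl5 (0.55 and 0.57). The share of all genes with a larger SD in treated livers is not given here. The count is therefore not read as a trait of the members, and the difference in spread was not tested.

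**Figure D3:**
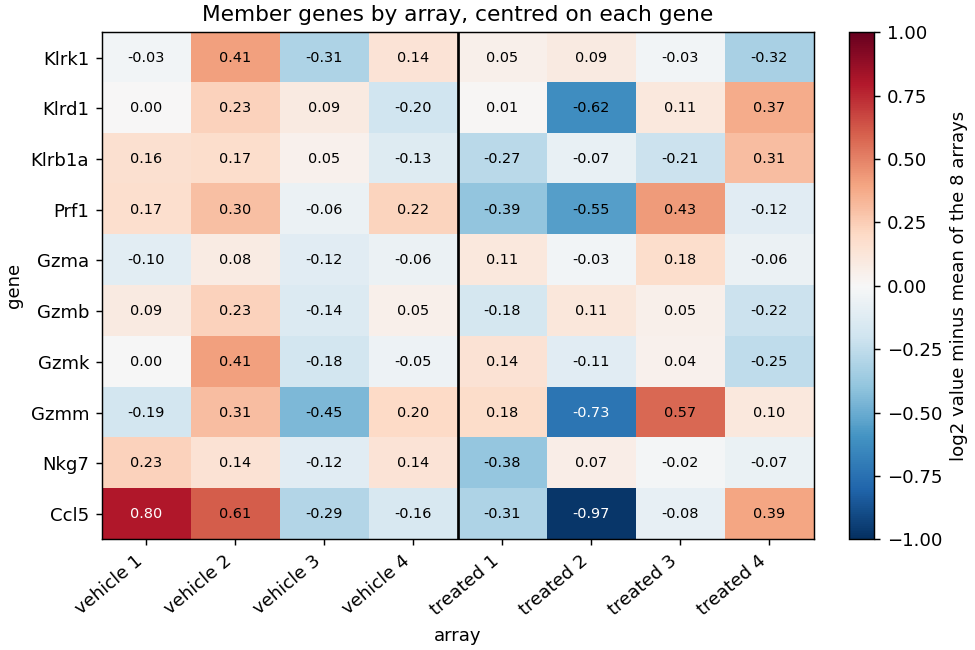
Values of the 10 genes (rows, brightest probe set) on the 8 arrays (columns), each minus the gene's own mean over the arrays, in log2 units. Red is above and blue below that mean. The vehicle 2 column is above the mean throughout, and the lowest entries of Ccl5, Gzmm, Klrd1 and Prf1 stand in the treated 2 column.

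Promoters are shown here for the members that shared both the array on which they were highest and the array on which they were lowest, namely Klrk1, Gzmk and Gzmb, and Prf1 with Gzmm. RefSeq promoter sequences of the rat assembly GRCr8, from 250 bases before to 50 bases after the annotated start, were matched for 8 of the 10 genes. All 10 symbols matched the RefSeq gene table of that assembly. In it, Klrd1 and Klrk1 are neighbours on chromosome 4 with 0 protein-coding genes between them, and so are Gzma and Gzmk on chromosome 2. In capitals are exact matches on either strand to the T-box half-site GGTGTGA (bound by T-bet and Eomes), the ETS core GGAAGT and the RUNX core TGTGGT. The letters of RUNX and T-box matches can overlap.
Klrk1 (chr4:164778333-164778632, minus strand): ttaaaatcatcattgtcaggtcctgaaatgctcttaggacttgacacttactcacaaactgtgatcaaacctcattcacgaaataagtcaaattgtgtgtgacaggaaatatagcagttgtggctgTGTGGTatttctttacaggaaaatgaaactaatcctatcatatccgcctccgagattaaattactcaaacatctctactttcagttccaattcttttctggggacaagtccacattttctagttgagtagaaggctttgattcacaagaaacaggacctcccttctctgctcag
Gzmk (chr2:46581966-46582265, minus strand): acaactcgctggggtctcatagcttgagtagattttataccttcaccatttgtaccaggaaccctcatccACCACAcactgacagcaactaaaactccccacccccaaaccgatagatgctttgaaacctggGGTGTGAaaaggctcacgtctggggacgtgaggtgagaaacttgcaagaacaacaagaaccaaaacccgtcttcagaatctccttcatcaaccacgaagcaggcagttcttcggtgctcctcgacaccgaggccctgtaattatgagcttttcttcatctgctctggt
Gzmb (chr15:34462420-34462719, minus strand): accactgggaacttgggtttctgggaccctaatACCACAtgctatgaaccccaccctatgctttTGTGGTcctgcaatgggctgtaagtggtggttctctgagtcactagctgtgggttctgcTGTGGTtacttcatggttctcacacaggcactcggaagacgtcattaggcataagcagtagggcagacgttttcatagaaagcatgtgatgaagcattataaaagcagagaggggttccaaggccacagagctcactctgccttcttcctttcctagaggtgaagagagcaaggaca
Prf1 (chr20:29788790-29789089, plus strand): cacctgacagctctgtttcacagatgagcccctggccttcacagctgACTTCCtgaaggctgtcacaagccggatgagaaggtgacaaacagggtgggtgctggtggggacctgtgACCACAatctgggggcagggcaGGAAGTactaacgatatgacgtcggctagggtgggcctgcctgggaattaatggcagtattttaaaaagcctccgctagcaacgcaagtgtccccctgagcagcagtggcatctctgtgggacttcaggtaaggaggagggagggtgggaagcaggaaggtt
Gzmm (chr7:10667207-10667506, minus strand): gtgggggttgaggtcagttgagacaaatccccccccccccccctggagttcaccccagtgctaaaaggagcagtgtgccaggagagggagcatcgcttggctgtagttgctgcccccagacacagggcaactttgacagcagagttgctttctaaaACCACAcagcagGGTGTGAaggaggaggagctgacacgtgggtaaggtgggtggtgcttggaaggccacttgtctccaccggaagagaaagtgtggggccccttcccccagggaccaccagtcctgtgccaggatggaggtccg

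The RUNX core stood in 7 of the 8 member promoters, all but that of Klrb1a, against 17.3% of 33469 promoters of the same length. Gzmb held 3 matches and the other 6 held 1 each. The ETS core stood in 3 (Klrb1a, Prf1 and Gzma), against 22.6% of all promoters, and the T-box half-site in 2 (Gzmk and Gzmm), against 3.83%. A match describes letters and does not show that a factor binds there, and binding was not measured. Of the 3 genes that were highest on vehicle 2 and lowest on treated 4, Klrk1, Gzmk and Gzmb, each held the RUNX core and 1 the T-box half-site. Prf1 and Gzmm, both highest on treated 3 and lowest on treated 2, each held the RUNX core as well, so this match did not separate the profiles.

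Other genes that mark natural killer cells were also mostly dim, and their groups overlapped. Of 20 listed genes 13 were measured apart from the members, 4 were lower in treated livers, the median difference was 0.04, and 0 had an unadjusted p under 0.05. Across the arrays the mean of this list ran from 3.86 to 4.15 in vehicle and from 3.96 to 4.08 in treated livers. Ncr1 (NKp46), a defining receptor of natural killer cells, was below the 25th percentile on every array, with means of 3.31 in both groups, as were 5 others including Ncr3 and Eomes. Klrg1, an inhibitory receptor of mature effector cells, was brighter, at 6.58, 6.78, 6.22 and 5.56 in vehicle and 6.39, 4.81, 6.04 and 5.94 in treated livers (difference −0.49). It was lowest on treated 2, as were Prf1, Gzmm, Klrd1 and Ccl5. The receptors Klra5 and Klra22, of the Ly49 family, differed by −0.27 and 0.24.

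The adaptors, granule genes and regulators that work with the effectors are described by counts, and Lck, Coro1a, Cd48, Cd247 and Eomes each stand in 2 lists. Of 19 receptor adaptor and proximal signalling genes 18 were lower (median −0.30), and 4 were lower at an unadjusted p under 0.05, where 2.04% of all probe sets were lower and 1.89% higher. These 4 were Fcgr3a (the low-affinity IgG receptor CD16, −0.65), Inpp5d (the phosphatase SHIP1, −0.53), Lck (a T cell kinase, −0.45) and Pik3cd (a leukocyte PI3-kinase subunit, −0.30). Tyrobp and Hcst, the adaptors DAP12 and DAP10 through which Klrk1 and related receptors signal, both differed by −0.42, with unadjusted limma p of 0.279 and 0.194. In granule loading, processing and exocytosis 10 of 20 were lower (median 0.02), with 3 at an unadjusted p under 0.05. These 3 were Coro1a (an actin regulator, −1.26), Cst7 (cystatin F, −1.18) and Srgn (serglycin, the granule proteoglycan, −1.05). Vehicle 4 lay inside their treated ranges, at 6.31 for Coro1a (treated 6.08 to 6.86), 4.27 for Cst7 (4.05 to 5.39) and 7.83 for Srgn (7.66 to 8.30). The groups overlapped for every gene of this list and of the receptor adaptor list. Ctsc, the protease that activates granzymes, differed by 0.10. Many of these genes are made by other leukocytes as well.

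Further lists held 1 gene each at an unadjusted p under 0.05, all lower. At that threshold 2.04% of all probe sets were lower and 1.89% higher. With 1 gene per list, these counts are not read as a result about the lists. Ets1 (a transcription factor, −0.78) was the one among 19 cytokine receptor and transcription factor genes, of which 16 were lower (median −0.22). Ifngr1 (an interferon gamma receptor chain, −0.62) was the one among 10 death ligand genes and receptors (7 lower, median −0.11). Itgal (the LFA-1 alpha chain, −0.61) was the one among 16 chemokine and homing genes (9 lower, median −0.06), and Cd48 (the ligand of Cd244, −0.92) among 7 receptor ligands (4 lower, median −0.12). Among the chemokine and homing genes the largest differences were upward, at Cxcl10 (1.22) and Cxcl11 (1.15), followed by Cxcl16 (−1.12). Their unadjusted limma p values were 0.349, 0.086 and 0.071, in this order. Cxcl10 stood at 4.94, 6.60, 5.95 and 7.16 in vehicle and at 4.80, 11.40, 7.18 and 6.13 in treated livers. Its difference rested largely on treated 2, and its interval ran from −1.57 to 4.00. None of the genes in these lists passed an adjusted p of 0.05 (0 by limma), and none was higher at an unadjusted p under 0.05. The transcript of Ifng itself was below the 25th percentile on every array.

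Markers of other cell types are given beside the members, and their part in the values above was not tested. Of 13 T cell markers 11 were lower (median −0.19). Their list means were 4.82 to 4.98 on vehicle 1 to 3, 4.63 on vehicle 4 and 4.43 to 4.78 in treated livers. Cd3e (−0.69), Cd4 (−0.77) and Lck were those with an unadjusted p under 0.05, while Cd8a and Cd8b, the chains of the cytotoxic T cell co-receptor, differed by 0.35 and −0.04. Pan-leukocyte genes were lower at 7 of 7 (median −0.70), with Coro1a and Cd48 at an unadjusted p under 0.05. Their list means were 7.64 to 7.94 on vehicle 1 to 3, 6.83 on vehicle 4 and 6.48 to 7.54 in treated livers. Mast cell genes were lower at 10 of 10 (median −0.72), 7 of them at an unadjusted p under 0.05 (Cpa3, Mcpt1, Cma1, Mcpt1l1, Tpsab1, Tpsb2 and Fcer1a), with list means of 5.71 to 5.92 on vehicle 1 to 3, 4.28 on vehicle 4 and 4.17 to 4.40 in treated livers. Whether the members differ from these lists in their response was not tested.

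The remaining lists had 0 genes at an unadjusted p under 0.05. Monocyte and macrophage markers were lower at 6 of 8 (median −0.48, with Lyz2, Csf1r and Adgre1 at −0.87, −0.82 and −0.97). Cd14 and Cd163 were higher, at 0.88 and 0.18. Neutrophil markers were lower at 5 of 5 (median −0.29, with Cxcr2 and Csf3r at −0.10 each and Lcn2 at −0.51). B cell markers were lower at 1 of 4 (median 0.08, with Ms4a1, Cd22 and Blk at 0.11, −0.16 and 0.08). Cxcr2, Csf3r and Ms4a1 lay below the 25th percentile on every array. Hepatocyte markers were lower at 5 of 7 (median −0.03, with Apoa1, Hnf4a and Cps1 at −0.64, 0.15 and −0.12).

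On the 6 arrays without vehicle 4 and treated 3, the list medians were −0.41 for receptor adaptors, 0.03 for granule genes, −0.02 for death ligands, −0.28 for cytokine receptors and transcription factors, −0.16 for chemokines and homing genes, −0.16 for receptor ligands and 0.06 for genes that mark natural killer cells. The medians were −0.18 for T cell, 0.02 for B cell, −0.64 for monocyte and macrophage, −0.60 for neutrophil, −0.99 for mast cell, −0.89 for pan-leukocyte and −0.04 for hepatocyte markers.

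**Figure D4:**
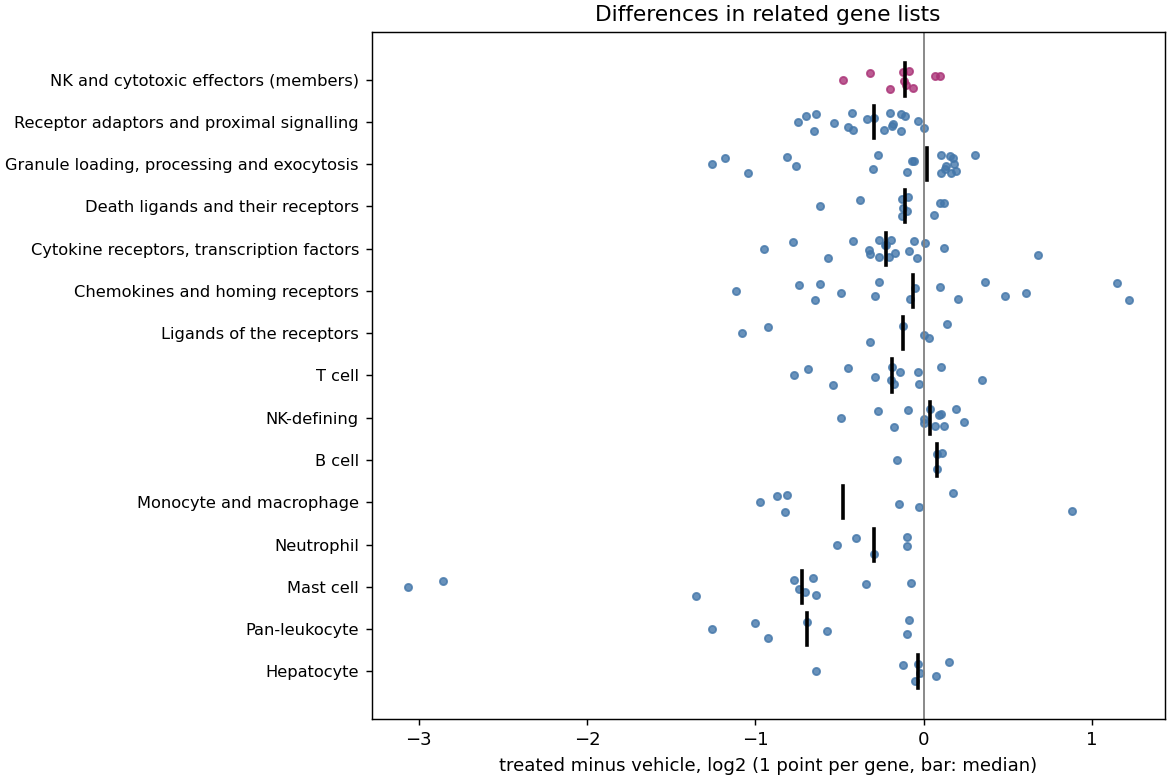
Treated minus vehicle differences (log2, horizontal axis) of the 10 member genes (purple) and of the other lists (blue), with 1 point per gene and a bar at each median. The members lie between −0.48 and 0.10 with a median of −0.11, and the pan-leukocyte and mast cell medians lie at −0.70 and −0.72.

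The genes with the most similar profile over the arrays were sought among 10840 genes outside the set with a mean at or above the 40th percentile. Likeness was Pearson's r between a gene and the average centred profile of the 10 members over 8 arrays, 2 of which are near-copies, and the best of so many candidates are high by selection. The first 8 were Osbpl1a (r = 0.91), Sh2d2a (0.90), Camta2 (0.90), Elmo1 (0.89), Cgrrf1 (0.89), Osbpl3 (0.88), Pax8 (0.87) and Cxcr3 (0.87). Without the near-identical arrays r was, in the same order, 0.92, 0.93, 0.91, 0.96, 0.88, 0.88, 0.90 and 0.93, highest for Elmo1. The genes were not chosen anew for this, so these values are also high by selection. Sh2d2a is an adaptor of activated T and natural killer cells, and Cxcr3 is the chemokine receptor of effector lymphocytes. Cxcr3 stood at 4.77, 5.18, 4.67 and 4.72 in vehicle and 4.49, 4.42, 4.64 and 4.73 in treated livers. It was highest on vehicle 2 and lowest on treated 2, as was the average member profile by which it was selected.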

How the data were processed

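Values were used as the authors deposited them: log2 intensities per probe set, made with affy and RMA per the submitters' processing notes, in which background correction, quantile normalization and probe summary precede deposit. Tool versions, settings and the genome build: not given in the sources used here. Of 31099 probe sets, 57 controls were left out, which leaves 31042, and 0 array columns were unused. Groups and replicate numbers came from the sample titles. The annotation gave 1 gene symbol for 20826 of them, several for 436 and none for 9780.

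Differences are treated minus vehicle, from limma 3.58.1 (R 4.3.3) on 8 arrays without covariates, with Benjamini-Hochberg adjustment over all tested probe sets, and the procedure was tested on simulated data. A gene is represented by its probe set with the highest mean. Intervals are 95% from moderated variances. The array number (n = 4 per group) and brightness limit precision. All member probe sets are named. In each list the genes with an unadjusted p under 0.05 are named, or else up to 3 with the smallest p. Further genes were named after their values were seen, namely Tyrobp, Hcst, Ctsc, Ifng, Cd8a, Cd8b, Ncr1, Ncr3, Eomes, Cd14, Cd163, Cxcl10, Cxcl11 and Cxcl16. Spike-in groups came from hierarchical clustering of BioB and BioC, cut at a chosen number of 3 groups. Members, lists, motifs and tests were chosen with earlier results of these data known. Alternatives were 2 renormalizations, a 40th percentile filter, trended robust variances, a replicate block, a spike-in block, leaving out arrays, and the mean of a gene's probe sets.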

Additional observations from a re-analysis of the deposited data

How the results depend on the processing

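Across the alternatives no member probe set passed an adjusted p of 0.05 (0 of 158 results, smallest adjusted p = 0.555 by limma), and 2 had an unadjusted p under 0.05, both Prf1. The direction turned in 8 of the 158. Quantile normalization, median centring, the filter, trended variances and both blocks turned 0. Without the near-identical arrays Gzmm was −0.037. Leaving out 1 array gave ranges of −0.12 to 0.32 for Gzmm, −0.23 to 0.013 for Klrk1, −0.20 to 0.13 for Klrd1, −0.16 to 0.034 for Gzmk and −0.013 to 0.065 for the second Gzmb probe set (1379794_at). The count of lower members was 5 (without vehicle 2) to 9 when 1 array was left out, and 3 under the filter on dim probe sets, where 4 members were left. The median of all 10 members ran from −0.17 to −0.03 when 1 array was left out, and median centring gave −0.06. The 4 members left by the filter had a median of −0.10. Over all probe sets, the count at an unadjusted p under 0.05 was 1220 and became 792 under the filter, 2025 without the near-identical arrays and 538 (without treated 1) to 2885 (without treated 4) when 1 array was left out, with 650 without vehicle 1, 626 without vehicle 3 and 2466 without vehicle 4. The adjusted count of 0 became 3 without the near-identical arrays and ran from 0 to 11 (without vehicle 4). With the replicate block the count at an unadjusted p under 0.05 was 785 and the adjusted count 0. Same-numbered arrays did not deviate together (correlations of −0.62 to 0.04 in 4 pairs), so the numbers were not taken to pair animals.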

Other observations

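A further probe set (1371126_x_at) carries the symbols of both Gzmb and LOC100361261, which the RefSeq table lists as a pseudogene, and was left out of the set because it has more than 1 symbol. It averaged 2.91 ± 0.07 in vehicle and 3.02 ± 0.08 in treated livers (SD, n = 4 each), a difference of 0.10, against −0.12 and 0.03 at the Gzmb probe sets with 1 symbol.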
